A study of Homo sapiens with 9 samples.

Results

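Heat shock proteins and chaperones were followed by RNA-seq in LNCaP, a human prostate cancer cell line, with and without part of the long noncoding RNA gene *EPCART*. The genes were chosen by their symbols, with earlier results of these data known, and then by a limit on their mean. The symbols were those of the HSPA, HSPB and HSP90 genes, *HSPH1*, *HSPD1*, *HSPE1*, the DNAJA, DNAJB and DNAJC genes, the chaperonin genes *TCP1* and *CCT2* to *CCT8*, and the heat shock factors *HSF1* and *HSF2*. Of 79 such symbols, 76 had a mean normalized count of at least 1 over the 9 libraries. They stand among 17530 genes at that level and 19984 genes in the whole table. The other 3 were *DNAJB8* and *HSPB7*, with at most 6 and 2 reads in any library, and *HSPB3*, with 0 reads in every library. A count of 0 allows up to 3 reads if reads are independent. By general knowledge of the proteins, 51 of the 76 were placed in the cytosol or nucleus, 13 in the endoplasmic reticulum (ER) and 8 in mitochondria, and 4 (*DNAJC4*, *DNAJC22*, *DNAJC25* and *DNAJC28*) were left unplaced.

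The libraries came from 3 clones of LNCaP with 3 replicate libraries each. In del-4 and del-56, named *EPCART*-del clones, CRISPR-Cas9 had removed the *EPCART* promoter with exons 1 and 2, and the WT clone was made by the same procedure and kept the gene. All were grown for 48 h in RPMI medium with 10% serum. Each genotype is thus held by single clones, so the deletion and other differences between clones cannot be told apart, and p-values measure the spread between libraries of a clone. *EPCART* itself was not analysed here, since the table holds protein-coding genes only. A value is a normalized count, the reads on a gene divided by a size factor of its library, and 91074556 to 118877134 reads lay on genes per library. The luminal prostate marker *KLK3* had normalized counts of 46505 to 52169 in WT, 54904 to 59859.6 in del-4 and 35098 to 38225 in del-56, and 6 markers of other cell types (basal, immune, endothelial and stromal) summed to 951 to 1026 in WT, 1109 to 1364 in del-4 and 1193 to 1328 in del-56, nearly all of it *COL1A1*. The basal marker *KRT5* had at most 1 read in any library. The part of these genes in the results was not tested. In bulk RNA, fewer cells and less RNA per cell cannot be told apart.

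Chaperones bind proteins that are not folded and keep them from clumping. HSP70 proteins hold short stretches of a client with the help of J proteins (the DNAJ genes), which bring the client and trigger the ATP use of HSP70, and of HSP110 proteins, which exchange its nucleotide. HSP90 acts later, on clients that are nearly folded, and many kinases are known clients. The chaperonins are closed chambers: TRiC, built of 8 different subunits, folds actin and tubulin in the cytosol, and HSP60 with its lid HSP10 works in mitochondria. When unfolded proteins gather in the cytosol, the transcription factor HSF1 binds heat shock elements in the promoters of many of these genes. The ER has its own HSP70 (*HSPA5*, also called BiP) and HSP90 (*HSP90B1*, GRP94), whose promoters carry ER stress elements.

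The elements themselves are shown because they tie some of these genes to the 2 stress responses. Promoters here are 300 bases of RefSeq on GRCh38.p14, 250 before and 50 after a start, and 68 of the 76 members had at least 1 such entry, 90 promoters in all. A heat shock element was counted where 3 alternating GAA and TTC units stood 2 bases apart on either strand. It was found in 7 of the 90 promoters (7.78%) and in 0.490% of 35116 promoters of all genes. With only 2 units, GAA and TTC in either order and 2 bases apart, which every longer element contains, the shares were 27.8% and 13.5%. The longer matches lay in promoters of *DNAJA1*, *DNAJB6*, *HSP90AA1*, *HSP90AB1*, *HSPA6*, *HSPA8* and *HSPD1*, and 1 match of each is printed 5′ to 3′ along the gene with the match in capitals.
*HSP90AA1*, chr14:102087090-102087162, minus strand: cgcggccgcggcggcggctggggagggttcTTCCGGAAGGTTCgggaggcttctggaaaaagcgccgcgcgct
*HSP90AB1*, chr6:44247748-44247820, plus strand: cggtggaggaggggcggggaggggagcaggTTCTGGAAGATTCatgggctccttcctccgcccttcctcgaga
*DNAJB6*, chr7:157336843-157336915, plus strand: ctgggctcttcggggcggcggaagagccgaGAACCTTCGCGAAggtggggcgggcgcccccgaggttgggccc
*HSPA6*, chr1:161524436-161524508, plus strand: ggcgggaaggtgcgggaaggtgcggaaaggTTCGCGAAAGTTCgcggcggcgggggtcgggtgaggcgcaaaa
*HSPA8*, chr11:123062171-123062199, minus strand: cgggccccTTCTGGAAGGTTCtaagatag
*HSPD1*, chr2:197500063-197500090, minus strand: gcattTTCTGGAAAGTTCTGGAAccgag
*DNAJA1*, chr9:33025268-33025296, plus strand: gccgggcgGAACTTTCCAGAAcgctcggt
The ER stress element, CCAAT and CCACG with 9 bases between them on either strand, was found in promoters of *HSPA5* and *HSP90B1* only among the members, against 0.0769% of all promoters. These matches are again in capitals.
*HSPA5*, chr9:125241386-125241414, minus strand: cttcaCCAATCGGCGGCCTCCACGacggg
*HSP90B1*, chr12:103930211-103930239, plus strand: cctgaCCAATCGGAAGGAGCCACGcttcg
A match says only that these letters stand in the window. No binding was measured.

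Levels of different genes were compared as normalized counts per kilobase of the main transcript, averaged over the 9 libraries. The main transcript is that of the annotation, and whether these cells use it was not checked. The members spanned a wide range, from 1.61 for *HSPB2* to 118944 for *HSPA8*, the constitutive HSP70 of the cytosol. *HSP90AB1* stood beside it at 116676, followed by the mitochondrial HSP60 gene *HSPD1* at 86365, *HSP90AA1* at 64384, the small heat shock protein gene *HSPB1* at 58473 and *HSPE1* at 52286. Together these 6 genes made up 55.7% of the summed level of all members. In the ER the order was led by *HSP90B1* (42794) and *HSPA5* (24848). The heat-inducible HSP70 genes were far below *HSPA8*: *HSPA1B* was at 4883, *HSPA1A* at 494 and *HSPA6* at 38.1. The median level was 2368 in the cytosol or nucleus, 1251 in the ER and 3921 in mitochondria.

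**Figure D1:**
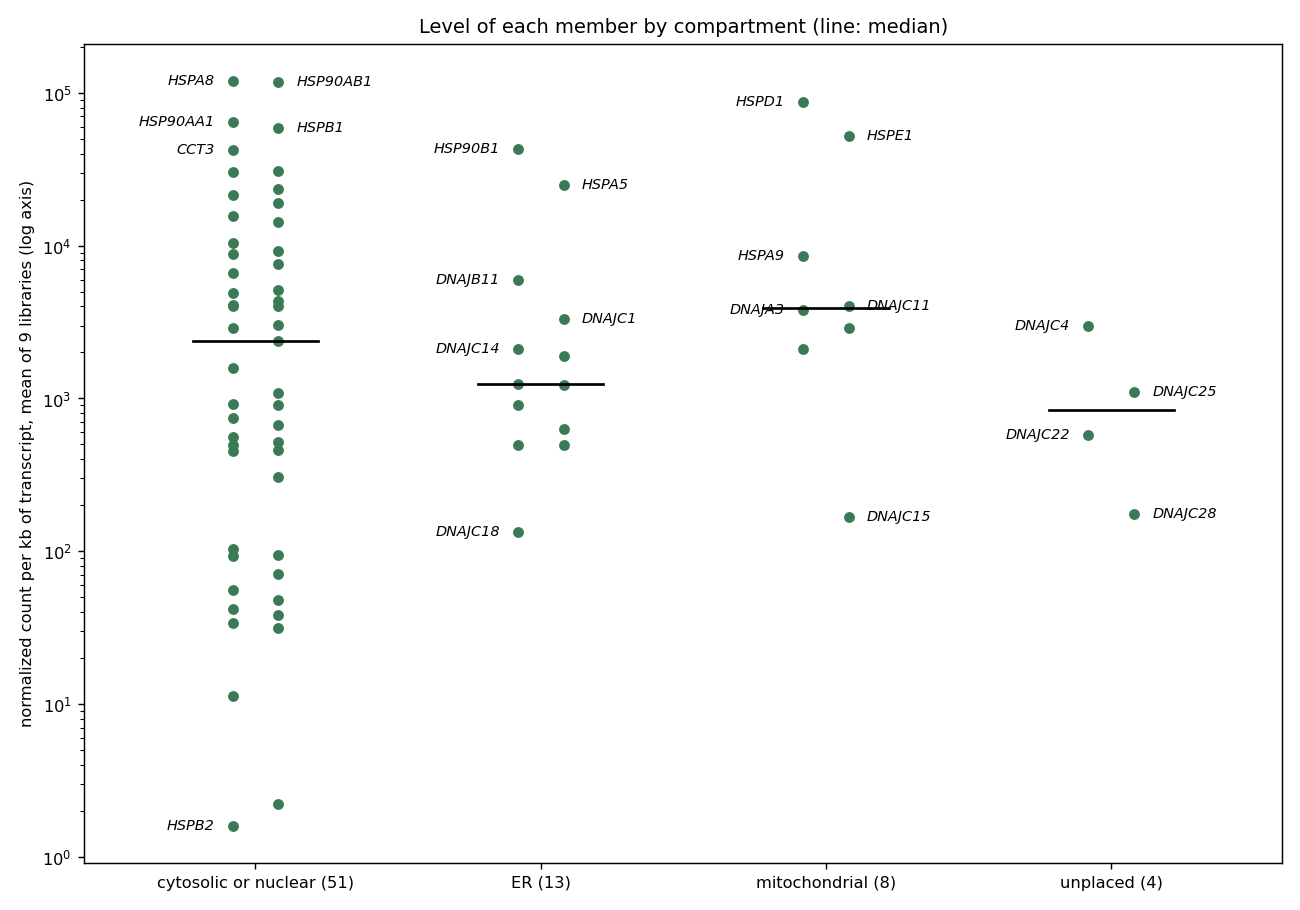
Level of each of the 76 members as normalized count per kilobase of transcript, the mean of 9 libraries on a log axis, by compartment, with the median as a line. *HSPA8* and *HSP90AB1* lead the cytosol, *HSP90B1* the ER and *HSPD1* the mitochondria, and *HSPB2* is lowest at 1.61.

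The first question was which chaperones differed between the *EPCART*-del clones and the WT clone. Log2 fold changes (log2FC) are on log2 of the normalized count plus 1, from limma, and a gene was called at a Benjamini-Hochberg adjusted p under 0.05 over all genes tested. In del-4, 17 of 75 members tested were higher and 18 lower, where 20.5% of all genes were called higher and 20.2% lower. In del-56, 15 of 76 were higher and 14 lower, beside 19.2% and 20.5% of all genes. Both counts are thus near the background, and the members' changes were small. The median size of a log2FC, regardless of sign, was 0.11 over the members in either clone, against 0.19 over all genes in each. The genes compared were not matched by level, so the smaller size is not shown to be a trait of chaperones. The study's fold rule asks for a p-value under 0.05, from DESeq2 in the study, with a log2FC above 1 or below -1. Here it was applied to the unadjusted p and log2FC of limma, so the calls need not be those of the study. By this rule only *HSPB8* was called, in del-4, where 5.82% of all genes passed. No member passed it in del-56, where 5.94% of all genes did. With each library rescaled to the same total, the split moved from 17 higher and 18 lower to 11 and 34 in del-4, and from 15 and 14 to 10 and 19 in del-56.

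Both comparisons share the WT libraries, so the values of each are given side by side. A call in 1 clone alone does not show that the clones differ, which the direct comparison tests.

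By compartment, 11 cytosolic or nuclear members were higher and 11 lower in del-4, while del-56 had 11 and 7. In the ER, 4 were higher and 2 lower in del-4, while del-56 had 3 and 3. In mitochondria, 1 was higher and 4 lower in each clone. Beside these counts, limma called 20.5% of all genes higher and 20.2% lower for del-4. For del-56 the background was 19.2% higher and 20.5% lower. Whether any compartment departed from these shares was not tested. The median log2FC was -0.031 and -0.0015 for the cytosol or nucleus in del-4 and del-56, -0.041 and -0.038 for the ER, and -0.10 and -0.11 for mitochondria, beside -0.0028 and -0.0011 for all genes. For the mitochondrial members, the median deviation from the WT mean was -0.11 to -0.087 in the del-4 libraries, -0.18 to -0.071 in those of del-56 and -0.016 to 0.014 in those of WT, so the libraries of both clones stood below WT. The ER libraries of del-56 (-0.087 to -0.0099) overlapped those of WT (-0.017 to 0.017). These medians are descriptions of a few genes each and carry no test.

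**Figure D2:**
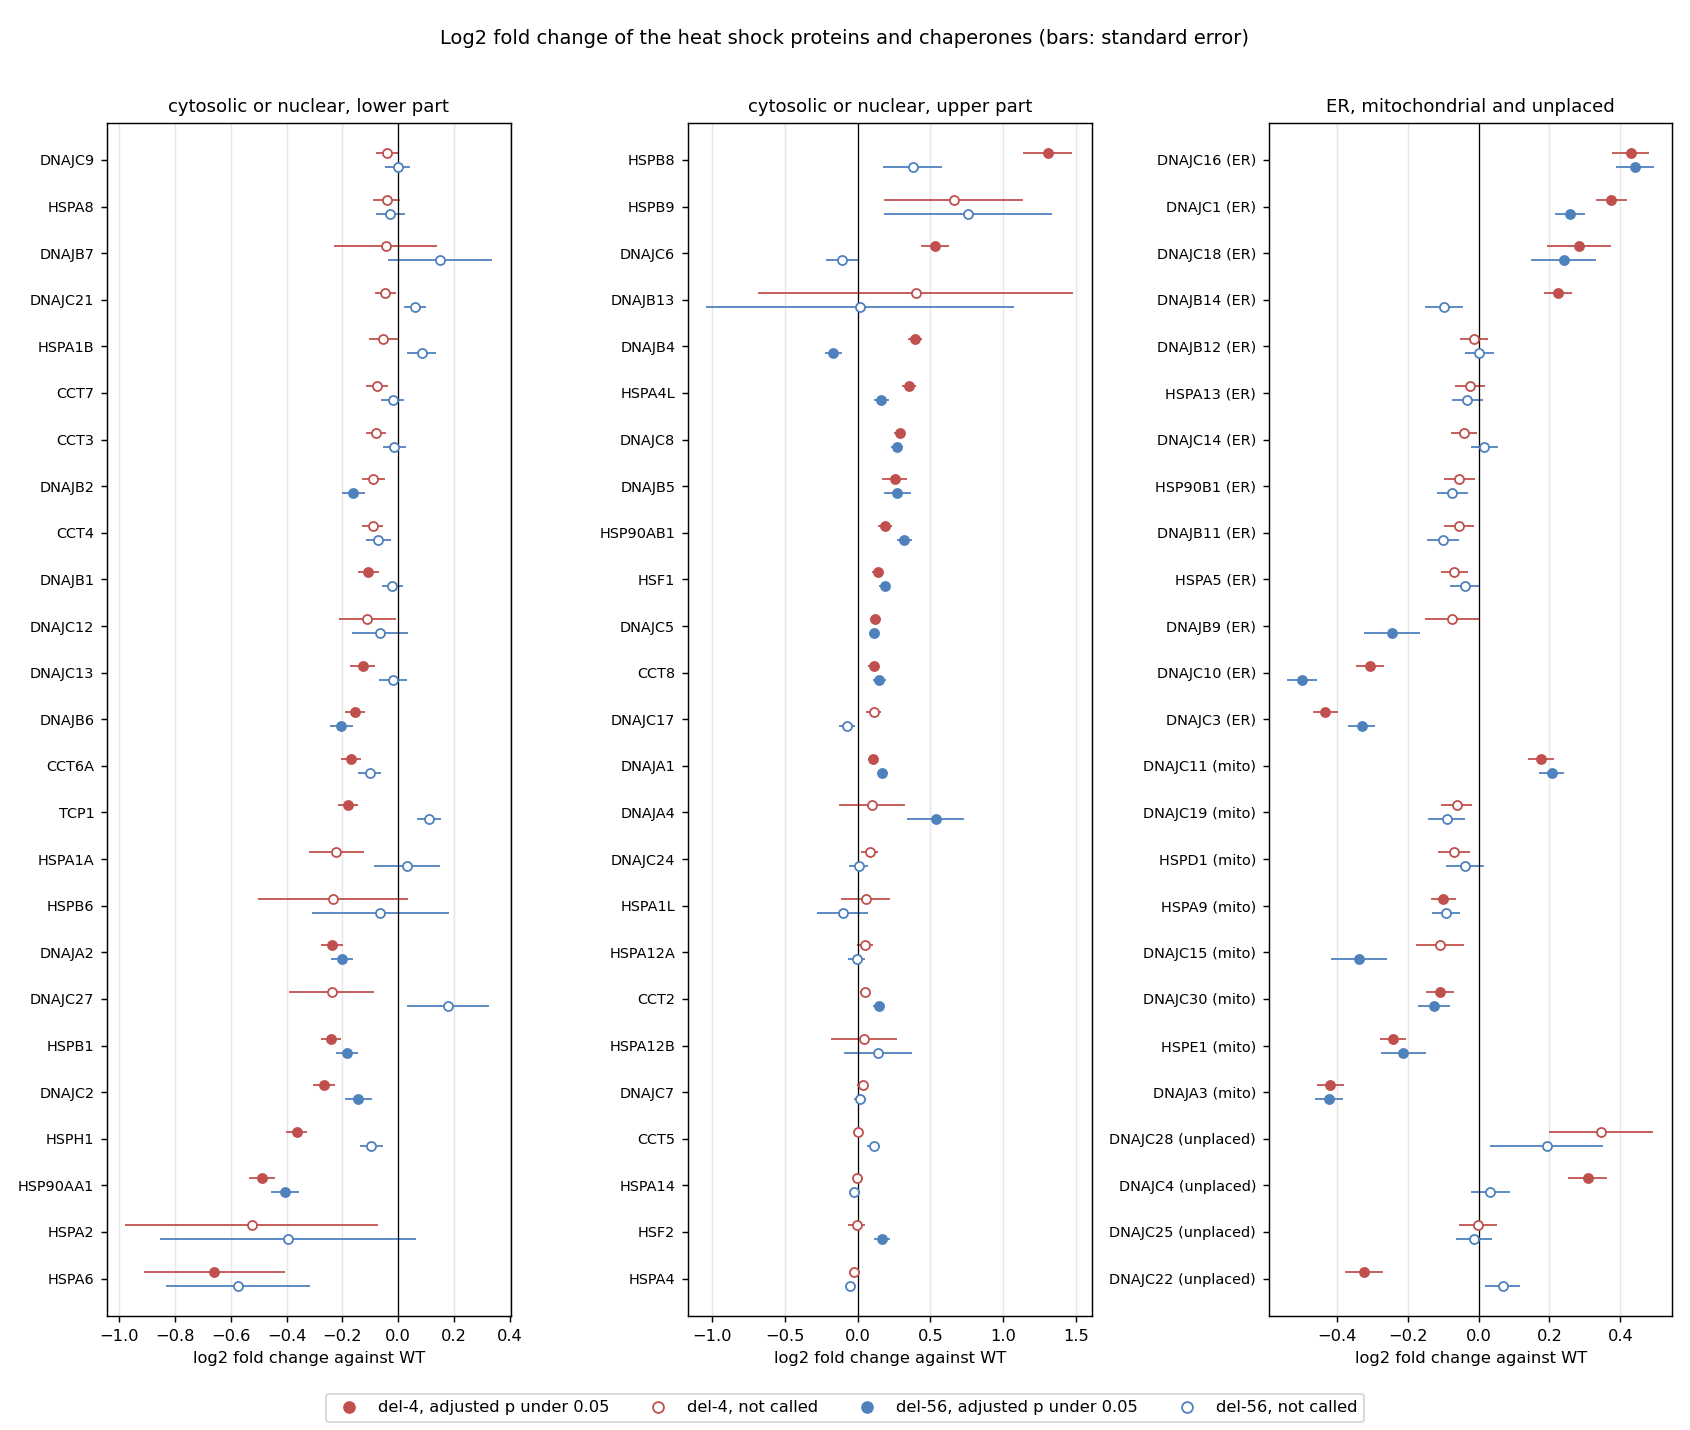
Log2 fold change of each member against WT with its standard error, in del-4 (red) and del-56 (blue), with filled points for an adjusted p under 0.05. *HSPB8* in del-4 lies farthest to the right at 1.31, *HSP90AA1* is low in both clones, and *HSPB2*, with too few reads to place, is left out.

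The pair of cytosolic HSP90 genes moved in opposite directions. *HSP90AA1* (ENSG00000080824, chromosome 14, 102080742 to 102139699, minus strand, GRCh38), the isoform known as the stress-inducible one, had normalized counts of 261777, 247845 and 248446 in WT, 184178, 192752 and 195431 in del-56 and 181255, 183222 and 175579 in del-4. All 6 deletion libraries lay below all WT libraries. Its log2FC was -0.49 ± 0.046 (SE) with adjusted p = 1.5e-07 in del-4 and -0.41 ± 0.051 (SE) with adjusted p = 9.8e-06 in del-56. *HSP90AB1* (ENSG00000096384, chromosome 6, 44246166 to 44253888, plus strand), the isoform known as constitutive, had 268729, 262579 and 260687 in WT, 328724, 327226 and 332152 in del-56 and 288964, 309168 and 304729 in del-4. Here all deletion libraries lay above WT, with a log2FC of 0.19 ± 0.049 (SE) with adjusted p = 0.0050 in del-4 and 0.32 ± 0.051 (SE) with adjusted p = 0.00012 in del-56. Quantile normalization brought the difference in del-4 to 0.0023 (adjusted p = 0.97, limma) and that in del-56 to 0.14, and without a filter on low values the adjusted p in del-4 was 0.054. Per kilobase, the ratio of *HSP90AB1* to *HSP90AA1* was 2.11 ± 0.091 (SD, n = 3) in del-4 and 2.18 ± 0.063 in del-56, against 1.32 ± 0.021 in WT. This ratio was chosen after its parts had been seen and carries no test. The coding sequences share 76.0% of 2172 aligned bases. Their promoters both hold the 3-unit heat shock element printed above. *HSP90AA1* shares exonic bases with *WDR20* on the other strand. Added up, both genes came to 480972 ± 11101 (SD, n = 3) in del-4 and 520154 ± 7342 in del-56, against 516688 ± 11984 in WT. The ER form *HSP90B1* was not called (log2FC -0.054, adjusted p = 0.35 in del-4 and log2FC -0.074, adjusted p = 0.22 in del-56). It was called lower in both clones with the same total for each library and with quantile normalization, which gave -0.26 (adjusted p = 6.0e-06, limma) and -0.16 (adjusted p = 0.0010).

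**Figure D3:**
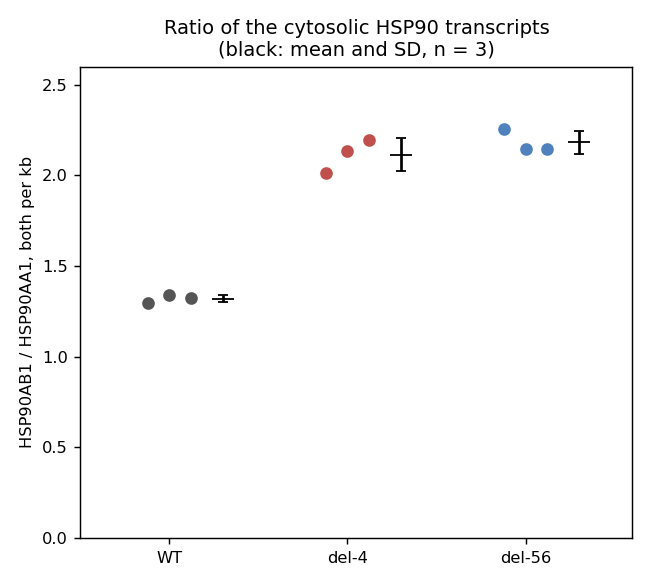
Ratio of *HSP90AB1* to *HSP90AA1*, each as normalized count per kilobase, in each library (points) with the mean and SD of each clone (black, n = 3), from an axis starting at 0. The WT libraries lie at 1.30 to 1.34 and the deletion libraries at 2.01 to 2.25.

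Among the 12 HSP70 genes limma, edgeR and DESeq2 each called 0 higher in either clone, and 0 had an unadjusted p under 0.05 in that direction. In del-4, limma called 2 lower, *HSPA6* and the mitochondrial *HSPA9*. In del-56 it called 0 lower, with 2 at an unadjusted p under 0.05 and 0 called by edgeR or DESeq2. Over all genes, limma called 20.5% higher and 20.2% lower for del-4, with 19.2% and 20.5% for del-56. Whether the 12 genes departed from these shares was not tested. *HSPA8* had 281172, 273671 and 265952 in WT, 264821, 262675 and 277304 in del-56 and 260723, 269240.4 and 268048 in del-4. Its libraries overlapped between the clones, at a log2FC of -0.040 ± 0.048 (SE) with adjusted p = 0.55 in del-4 and -0.028 ± 0.052 (SE) with adjusted p = 0.71 in del-56. With quantile normalization it was called lower in both clones, at -0.22 (adjusted p = 0.00050, limma) and -0.15 (adjusted p = 0.010), and with each library rescaled to the same total in del-4. *HSPA5* (BiP), the HSP70 of the ER, had 103132, 99192 and 97156 in WT, 97247, 95378 and 99111 in del-56 and 95177, 95480.0 and 94981 in del-4, and was not called (log2FC -0.068 ± 0.039 SE, adjusted p = 0.18 in del-4 and log2FC -0.038 ± 0.042 SE, adjusted p = 0.53 in del-56). Quantile normalization gave -0.24 (adjusted p = 1.5e-05, limma) and -0.14 (adjusted p = 0.0039), called lower in both clones, and the same total for each library gave a call in del-4. The stress-inducible gene *HSPA1A* had a log2FC of -0.22 (adjusted p = 0.087) in del-4 and 0.032 (adjusted p = 0.86) in del-56. For *HSPA1B* it was -0.053 (adjusted p = 0.46) and 0.084 (adjusted p = 0.22), so neither was called. Without WT replicate 1, both were called lower in del-4, at -0.36 for *HSPA1A* and -0.12 for *HSPA1B*, and *HSPA1A* was also called there with the same total for each library and with the replicate number as a block. Their coding sequences are identical at 1919 of 1923 bases, so how reads were split between them is uncertain. Their sum was 12804 ± 680 (SD, n = 3) in del-4 and 14176 ± 513 in del-56, against 13449 ± 1241 in WT. *HSPA6*, a strictly inducible HSP70 with a heat shock element in its promoter (above), was low throughout, at 82.1, 151 and 123 in WT, 90.6, 74.3 and 67.9 in del-56 and 70.1, 79.7 and 68.3 in del-4. It was called in del-4 (log2FC -0.66 ± 0.25 SE, adjusted p = 0.045) and not in del-56 (log2FC -0.57, adjusted p = 0.092), and the WT libraries spread widely.

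The HSP110 proteins, exchange factors of HSP70, split. *HSPH1* (ENSG00000120694, chromosome 13, 31134973 to 31162388, minus strand), a heat-inducible one, had 23197, 23975 and 23989 in WT, 20986, 22470.0 and 23182 in del-56 and 17807, 19429.7 and 18076 in del-4. Every del-4 library lay below every other library, with a log2FC of -0.36 ± 0.038 (SE) with adjusted p = 4.8e-07, while the del-56 libraries lay between both, at a log2FC of -0.10 ± 0.041 (SE) with adjusted p = 0.075. With the same total, with quantile normalization or without del-56 replicate 3 (-0.13) the latter was called lower too. *HSPA4L* had 4567, 4058 and 4273 in WT, 4587, 4993 and 4831 in del-56 and 5476, 5406 and 5573 in del-4, and rose in both clones (log2FC 0.35 ± 0.046 SE, adjusted p = 6.6e-06 in del-4 and log2FC 0.16 ± 0.051 SE, adjusted p = 0.019 in del-56). *HSPA4* itself was not called (log2FC -0.024, adjusted p = 0.64 in del-4 and log2FC -0.052, adjusted p = 0.30 in del-56).

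Small heat shock proteins hold unfolded clients without using ATP. *HSPB8* (ENSG00000152137, chromosome 12, 119171555 to 119224855, plus strand), which works with the co-chaperone BAG3 in clearing aggregates, showed the largest called change of any member. It had 119.8, 116 and 123 in WT, 172, 122 and 178 in del-56 and 334, 255 and 307 in del-4. The del-4 libraries were 2.48 times WT (log2FC 1.31 ± 0.17 SE, adjusted p = 5.9e-06), and in del-56 the log2FC was 0.38 ± 0.20 (SE) with adjusted p = 0.16. *HSPB1* (HSP27), by far the most abundant of them, had 49781, 50929 and 49188 in WT, 45636, 42928 and 43509 in del-56 and 42745, 43586 and 40598 in del-4. It was below WT in every library of both clones (log2FC -0.24 ± 0.037 SE, adjusted p = 4.4e-05 in del-4 and log2FC -0.18 ± 0.039 SE, adjusted p = 0.0013 in del-56). *HSPB6* and *HSPB9* had normalized counts of 8.03 to 83.1 and were not called. *HSPB2* had at most 2 reads in a library of del-4, at most 4 in del-56 and 0 in WT. It was left out of the del-4 fit by the filter, its exons overlap those of *CRYAB*, and at so few reads no fold is given.

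The J proteins were 15 members of classes A and B and 26 of class C. In classes A and B, 4 were higher and 4 lower in del-4, while del-56 had 3 and 6. In class C, 8 and 6 were called in del-4, while del-56 had 6 and 5. The background over all genes was 20.5% higher and 20.2% lower for del-4, with 19.2% and 20.5% for del-56. Whether these classes departed from it was not tested. *DNAJA1*, a main partner of HSPA8 in the cytosol, rose slightly in both clones (log2FC 0.11, adjusted p = 0.019 in del-4 and log2FC 0.17, adjusted p = 0.0025 in del-56). *DNAJB1*, the heat-inducible partner of class B, had a log2FC of -0.11 (adjusted p = 0.026) in del-4 and -0.021 (adjusted p = 0.69) in del-56. *DNAJB6*, known for keeping polyglutamine proteins soluble, fell in both (log2FC -0.15, adjusted p = 0.0026 in del-4 and log2FC -0.20, adjusted p = 0.00085 in del-56), as did *DNAJC2*, a ribosome-bound partner of HSPA14 (log2FC -0.27, adjusted p = 3.7e-05 in del-4 and log2FC -0.14, adjusted p = 0.027 in del-56). Of the other J proteins of the cytosol, *DNAJC5*, which guards secretory vesicles, rose in both clones (log2FC 0.12, adjusted p = 0.019 in del-4 and log2FC 0.11, adjusted p = 0.023 in del-56), though not against the median of its chromosome. *DNAJC13* was lower in del-4 (log2FC -0.13, adjusted p = 0.029), and in del-56 *DNAJA4* was higher (log2FC 0.54, adjusted p = 0.038) and *DNAJB2* lower (log2FC -0.16, adjusted p = 0.0066), both calls being lost against the median of the chromosome. Of the genes with the 3-unit element, *DNAJA1* and *HSP90AB1* were called higher and *DNAJB6* and *HSP90AA1* lower in both clones. *HSPA6* was called lower in del-4 only, and *HSPA8* and *HSPD1* were called in neither. Among all 76 members, 12 were called higher and 10 lower in both clones. The share of all genes called in both was not computed, and the part of the element in these calls was not tested.

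*DNAJB4* (ENSG00000162616, chromosome 1, 77979175 to 78017964, plus strand) was called in opposite directions. Its normalized counts were 2341, 2508 and 2526 in WT, 2106, 2298 and 2163 in del-56 and 3229.7, 3233 and 3210.2 in del-4, with no overlap between any of the clones. The log2FC was 0.39 ± 0.049 (SE) with adjusted p = 4.3e-06 in del-4 and -0.17 ± 0.057 (SE) with adjusted p = 0.028 in del-56, and *GIPC2* on the same strand shares exonic bases with it. *DNAJC6* (auxilin), which uncoats clathrin vesicles with HSPA8, had 498, 477 and 498 in WT, 487, 462 and 419.6 in del-56 and 759, 702 and 667 in del-4. It was higher in del-4 (log2FC 0.53 ± 0.097 SE, adjusted p = 0.00025) and not called in del-56 (log2FC -0.11, adjusted p = 0.48). *DNAJB5* rose in both clones at low counts of 661 to 939.8 (log2FC 0.25, adjusted p = 0.027 in del-4 and log2FC 0.27, adjusted p = 0.029 in del-56). *DNAJC8*, a splicing-associated J protein, rose as well (log2FC 0.29, adjusted p = 7.5e-06 in del-4 and log2FC 0.27, adjusted p = 8.2e-05 in del-56).

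**Figure D4:**
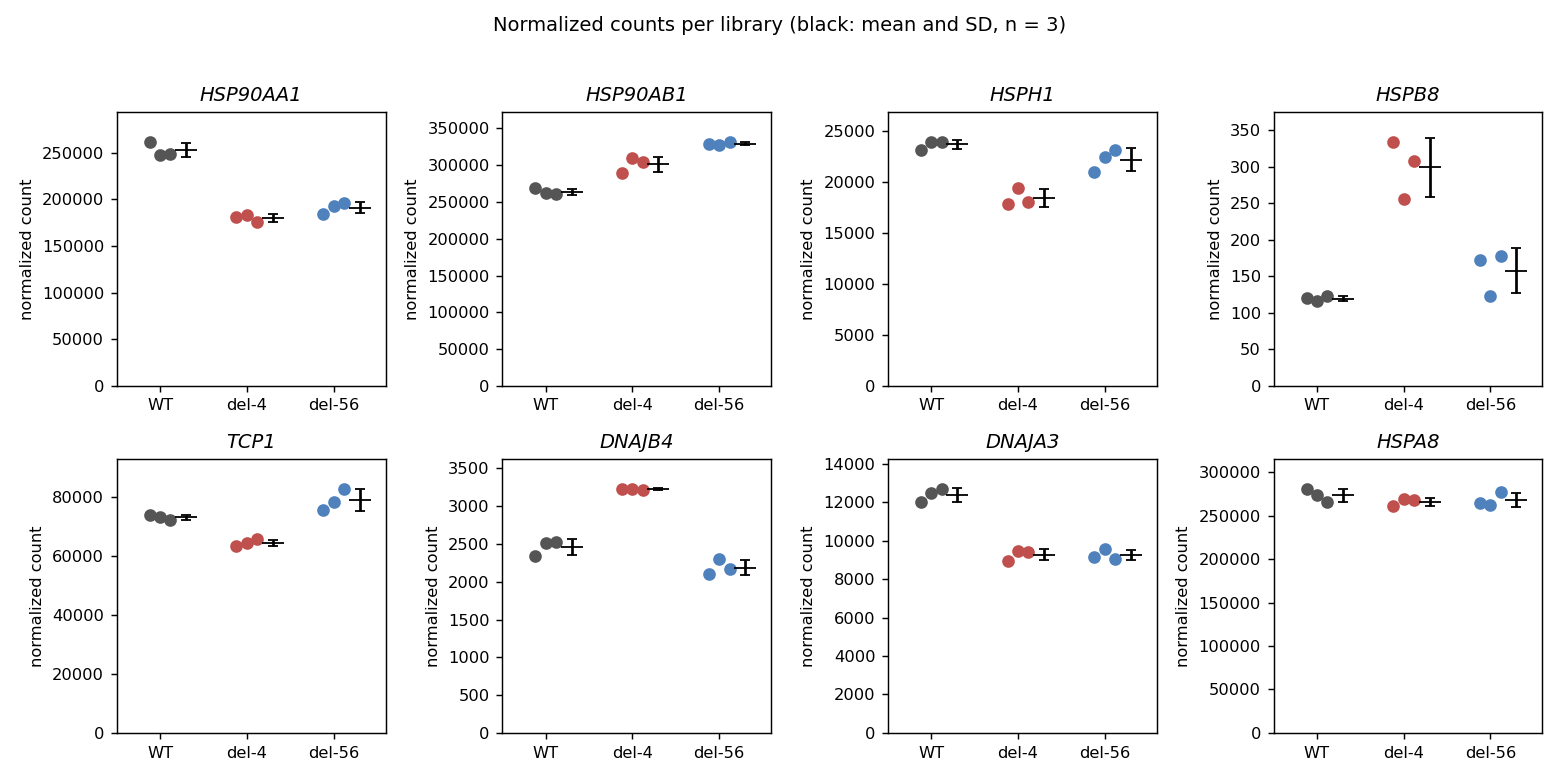
Normalized counts of 8 members in each library (points), with the mean and SD of each clone (black, n = 3), each from an axis starting at 0. *HSP90AA1* and *DNAJA3* are lower and *HSP90AB1* higher in both *EPCART*-del clones, *HSPB8* is highest in del-4, *TCP1* and *DNAJB4* lie on opposite sides of WT in the *EPCART*-del clones, and *HSPA8* overlaps.

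The 8 TRiC subunits are needed in equal number in the complex, yet their normalized counts per kilobase of the annotated main transcript were not equal. In every library *CCT4* was the lowest and *CCT3* the highest per kilobase, and the ratio of highest to lowest was 3.82 to 4.28. In del-4, *CCT8* was higher (log2FC 0.11, adjusted p = 0.023) and *TCP1* and *CCT6A* lower (log2FC -0.18, adjusted p = 0.00053 and log2FC -0.17, adjusted p = 0.00091). In del-56, *CCT8* and *CCT2* were higher (log2FC 0.15, adjusted p = 0.0095 and log2FC 0.15, adjusted p = 0.0084). There limma called 0 lower, with 1 at an unadjusted p under 0.05, 0 by edgeR and 1 by DESeq2. The count tests called more subunits. In del-56, edgeR and DESeq2 each called 4 higher, and in del-4 DESeq2 called 1 higher and 4 lower. Over all genes, limma called 20.5% higher and 20.2% lower for del-4, with 19.2% and 20.5% for del-56. Whether the 8 subunits departed from these shares was not tested. *TCP1* (ENSG00000120438, chromosome 6, 159778498 to 159789703, minus strand), the subunit alpha, had 73590.4, 73152 and 71987 in WT, 75463, 78129 and 82666 in del-56 and 63248, 64181 and 65514 in del-4. The del-4 libraries were below and the del-56 libraries above all WT libraries, the latter at a log2FC of 0.11 ± 0.043 (SE) with adjusted p = 0.051, just outside the threshold, and edgeR and DESeq2 called it there. *TCP1* shares exonic bases with *ACAT2* on the other strand, as do *DNAJC16* with *AGMAT*, *DNAJC11* with *THAP3*, *DNAJC2* with *PMPCB* and *DNAJB1* with *TECR*.

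In the ER, the called members were all J proteins, and *HSPA5* and *HSP90B1* passed the test only under other scalings or, for *HSPA5*, with centring by chromosome. *DNAJC3* (p58IPK), an inhibitor of the ER stress kinase PERK and a partner of BiP, had 8049.9, 8010.0 and 8077 in WT, 6549, 6257 and 6402 in del-56 and 6033, 5902 and 5954 in del-4. It was below WT in every library of both clones (log2FC -0.43 ± 0.036 SE, adjusted p = 3.1e-08 in del-4 and log2FC -0.33 ± 0.038 SE, adjusted p = 4.4e-06 in del-56). *DNAJC10* (ERdj5), a reductase that opens disulfides of misfolded proteins, had 12599.6, 11823 and 11485 in WT, 8187, 8721 and 8519.7 in del-56 and 9815, 9438 and 9796 in del-4, again with no overlap (log2FC -0.30 ± 0.040 SE, adjusted p = 6.3e-06 in del-4 and log2FC -0.50 ± 0.043 SE, adjusted p = 1.8e-07 in del-56). *DNAJC1*, *DNAJC16* and *DNAJC18*, membrane J proteins of the ER, rose in both clones. *DNAJC1* rose by 0.37 and 0.26 on the log2 scale and *DNAJC16* by 0.43 and 0.44. *DNAJC18* rose by 0.28 and, at an adjusted p of 0.048, by 0.24. *DNAJB9* (ERdj4), a target of the stress factor XBP1, had a log2FC of -0.075 (adjusted p = 0.47) in del-4 and -0.24 (adjusted p = 0.022) in del-56, and *DNAJB11* was not called (log2FC -0.054, adjusted p = 0.33 in del-4 and log2FC -0.10, adjusted p = 0.094 in del-56). *DNAJC14*, another membrane J protein, was not called either (log2FC -0.041, adjusted p = 0.41 in del-4 and log2FC 0.016, adjusted p = 0.78 in del-56). *DNAJB14* was higher in del-4 (log2FC 0.22, adjusted p = 0.00022) and not called in del-56 (log2FC -0.10, adjusted p = 0.17).

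Among mitochondrial members, *DNAJA3* (TID1), the main J protein of the matrix, showed the largest change. It had 11999, 12478 and 12706 in WT, 9126, 9570.3 and 9056 in del-56 and 8949.7, 9445 and 9428 in del-4, with all deletion libraries below WT (log2FC -0.42 ± 0.038 SE, adjusted p = 7.5e-08 in del-4 and log2FC -0.42 ± 0.039 SE, adjusted p = 4.1e-07 in del-56). The matrix HSP70 gene *HSPA9* (mortalin) fell slightly in del-4 (log2FC -0.10, adjusted p = 0.026) and had a log2FC of -0.092 (adjusted p = 0.082) in del-56. *HSPE1* (HSP10) had 33493, 31334 and 31779.6 in WT, 24256, 29970.0 and 29539.9 in del-56 and 28104, 27332 and 26302 in del-4 and fell in both (log2FC -0.24, adjusted p = 5.1e-05 in del-4 and log2FC -0.21, adjusted p = 0.013 in del-56). Its partner *HSPD1* (HSP60), which lies next to it in the opposite orientation, was not called (log2FC -0.070, adjusted p = 0.24 in del-4 and log2FC -0.039, adjusted p = 0.61 in del-56). It was called lower with quantile normalization, at -0.26 (adjusted p = 9.2e-06, limma) in del-4 and -0.16 (adjusted p = 0.0044) in del-56, and with the same total for each library in del-4. The ratio of *HSPE1* to *HSPD1* per kilobase was 0.580 ± 0.019 (SD, n = 3) in del-4 and 0.580 ± 0.036 in del-56, against 0.653 ± 0.0058 in WT, a description chosen after the values were seen. Their exons overlap on opposite strands, and *HSPE1* shares exons with the read-through gene *HSPE1-MOB4*, so these counts are less certain. *DNAJC11*, of the inner membrane organizing machinery, rose (log2FC 0.18, adjusted p = 0.00089 in del-4 and log2FC 0.21, adjusted p = 0.00028 in del-56), while *DNAJC15* fell in del-56 (log2FC -0.34, adjusted p = 0.0026) and *DNAJC30* in both clones (log2FC -0.11, adjusted p = 0.035 in del-4 and log2FC -0.13, adjusted p = 0.036 in del-56).

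Of the transcription factors, *HSF1*, the master regulator of the heat shock response, had 9772, 10512 and 9984 in WT, 11698, 11336 and 11379 in del-56 and 11021, 11305 and 10931 in del-4. All deletion libraries lay above WT (log2FC 0.14 ± 0.037 SE, adjusted p = 0.0070 in del-4 and log2FC 0.19 ± 0.039 SE, adjusted p = 0.0012 in del-56), and with each library rescaled to the same total the call in del-4 was lost. *HSF1* shares exonic bases with *DGAT1* on the other strand. *HSF2* was called in del-56 but not in del-4 (log2FC -0.0063, adjusted p = 0.95 in del-4 and log2FC 0.16, adjusted p = 0.027 in del-56).

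Some calls were lost when 1 library was left out, which also leaves fewer samples, and their log2FC is given over all such fits. The fits covered all genes, but single values are given only for the members named by rule. Whether the calls of *CCT6A*, *CCT8*, *DNAJA4*, *DNAJB2*, *DNAJB6*, *DNAJC5*, *DNAJC13*, *DNAJC15* and *HSPA6*, among others, held in them is therefore not reported. In del-56, the calls of *HSPA4L* (0.12 to 0.21) and *HSF2* (0.15 to 0.18) were lost without replicate 2 or 3 of del-56 or of WT, and that of *DNAJB4* (-0.20 to -0.14) without del-56 replicate 1 or 3 or WT replicate 2 or 3. That of *DNAJB9* (-0.32 to -0.16) was lost without WT replicate 2 or 3 or del-56 replicate 3, that of *DNAJC2* (-0.18 to -0.094) without WT replicate 1 or 2 or del-56 replicate 1 or 3, and that of *HSPE1* (-0.27 to -0.11) without WT replicate 1. In del-4, those of *HSPA9* (-0.11 to -0.086) and *DNAJB1* (-0.13 to -0.080) were lost without del-4 replicate 1 or 3 or WT replicate 2, and that of *DNAJA1* (0.093 to 0.13) without del-4 replicate 1 or WT replicate 2 or 3. *DNAJB5* lost its call in del-4 (0.19 to 0.30) without any 1 of the libraries but WT replicate 2, and in del-56 (0.21 to 0.32) without replicate 1 or 3 of either clone. *DNAJC18* lost it in del-4 (0.25 to 0.32) without del-4 replicate 3 or WT replicate 2, and in del-56 (0.21 to 0.28) without any 1 of the libraries but del-56 replicate 1. The calls of *HSP90AA1*, *HSP90AB1*, *HSPB1*, *DNAJC3*, *DNAJC10* and *DNAJA3* in both clones held in all of these fits.

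Several of these changes lay on chromosomes on which most genes were shifted in the same direction, and those values are given beside them. On chromosome 1 up to position 120000000, the median log2FC of all genes tested was 0.22 for del-4 and 0.23 for del-56, and on chromosome 16 it was -0.34 and -0.31. It was -0.17 and -0.16 on chromosome 13 and -0.15 and -0.16 on chromosome 2. The 5 members of that part of chromosome 1 (*DNAJC6*, *DNAJC8*, *DNAJC11*, *DNAJC16* and *DNAJB4*) were all called higher in del-4. In del-56, 3 of them were higher and 1 lower. The share of all genes called on that part was not computed, so these counts have no background beside them. Both members of chromosome 16, *DNAJA2* (log2FC -0.24, adjusted p = 6.1e-05 in del-4 and log2FC -0.20, adjusted p = 0.00079 in del-56) and *DNAJA3*, were lower in both clones. *DNAJC3* and *HSPH1* lie on chromosome 13 and *HSPE1* and *DNAJC10* on chromosome 2.

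When each gene was set against the median of its own chromosome, some calls ended, others held and a few were gained. *DNAJA3* then had a log2FC of -0.079 (adjusted p = 0.11) in del-4 and -0.11 (adjusted p = 0.029) in del-56, and *DNAJA2* turned to 0.10 (adjusted p = 0.054) and 0.11 (adjusted p = 0.061), again with del-4 given first. *DNAJC8* became 0.065 (adjusted p = 0.20) and 0.045 (adjusted p = 0.45), *DNAJC11* turned to -0.046 (adjusted p = 0.37) and -0.020 (adjusted p = 0.72), and *HSPE1* became -0.094 (adjusted p = 0.057) and -0.055 (adjusted p = 0.50). The members on shifted chromosomes that stayed called in both clones were *DNAJC3* (log2FC -0.26, adjusted p = 1.9e-05 in del-4 and log2FC -0.18, adjusted p = 0.0019 in del-56), *DNAJC10* (log2FC -0.16, adjusted p = 0.0043 in del-4 and log2FC -0.34, adjusted p = 6.0e-06 in del-56) and *DNAJC16* (log2FC 0.21, adjusted p = 0.0047 in del-4 and log2FC 0.21, adjusted p = 0.0056 in del-56), with *DNAJB4* on opposite sides (log2FC 0.17, adjusted p = 0.012 in del-4 and log2FC -0.39, adjusted p = 5.3e-05 in del-56). *DNAJC6* also came to lie on opposite sides (log2FC 0.31, adjusted p = 0.020 in del-4 and log2FC -0.33, adjusted p = 0.025 in del-56). The chromosome medians of *HSP90AA1* were 0.023 and 0.044, and those of *HSP90AB1* -0.017 and 0.033, and both genes kept their calls: *HSP90AA1* gave -0.52 (adjusted p = 7.9e-08) and -0.45 (adjusted p = 2.3e-06), and *HSP90AB1* 0.19 (adjusted p = 0.0059) and 0.29 (adjusted p = 0.00028). Centring also ended the calls of *DNAJB5* (log2FC 0.21, adjusted p = 0.065 in del-4 and log2FC 0.25, adjusted p = 0.050 in del-56), *DNAJC5* (log2FC 0.071, adjusted p = 0.15 in del-4 and log2FC 0.037, adjusted p = 0.47 in del-56), *CCT8* (log2FC 0.060, adjusted p = 0.23 in del-4 and log2FC 0.078, adjusted p = 0.16 in del-56) and *DNAJC30* (log2FC -0.066, adjusted p = 0.22 in del-4 and log2FC -0.088, adjusted p = 0.15 in del-56) in both clones. In del-4 it ended those of *HSPA6* (log2FC -0.58, adjusted p = 0.085) and *DNAJA1* (log2FC 0.067, adjusted p = 0.16). In del-56 it ended those of *DNAJB2* (log2FC -0.0033, adjusted p = 0.97), *DNAJA4* (log2FC 0.51, adjusted p = 0.053), *HSF2* (log2FC 0.13, adjusted p = 0.073), *DNAJB9* (log2FC -0.21, adjusted p = 0.052), *DNAJC2* (log2FC -0.11, adjusted p = 0.10), *DNAJC15* (log2FC -0.19, adjusted p = 0.073) and *DNAJC18* (log2FC 0.22, adjusted p = 0.080). Calls were gained by *HSPA5* in del-4 (log2FC -0.11, adjusted p = 0.042) and, beside *DNAJC6*, by *DNAJB11* (log2FC -0.12, adjusted p = 0.043), *HSPA9* (log2FC -0.12, adjusted p = 0.026) and *CCT7* (log2FC 0.14, adjusted p = 0.011) in del-56. Centring left 11 members higher and 14 lower in del-4, while del-56 had 8 and 10. It was added after the data had been seen, and what shifted the chromosomes was not tested.

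**Figure D5:**
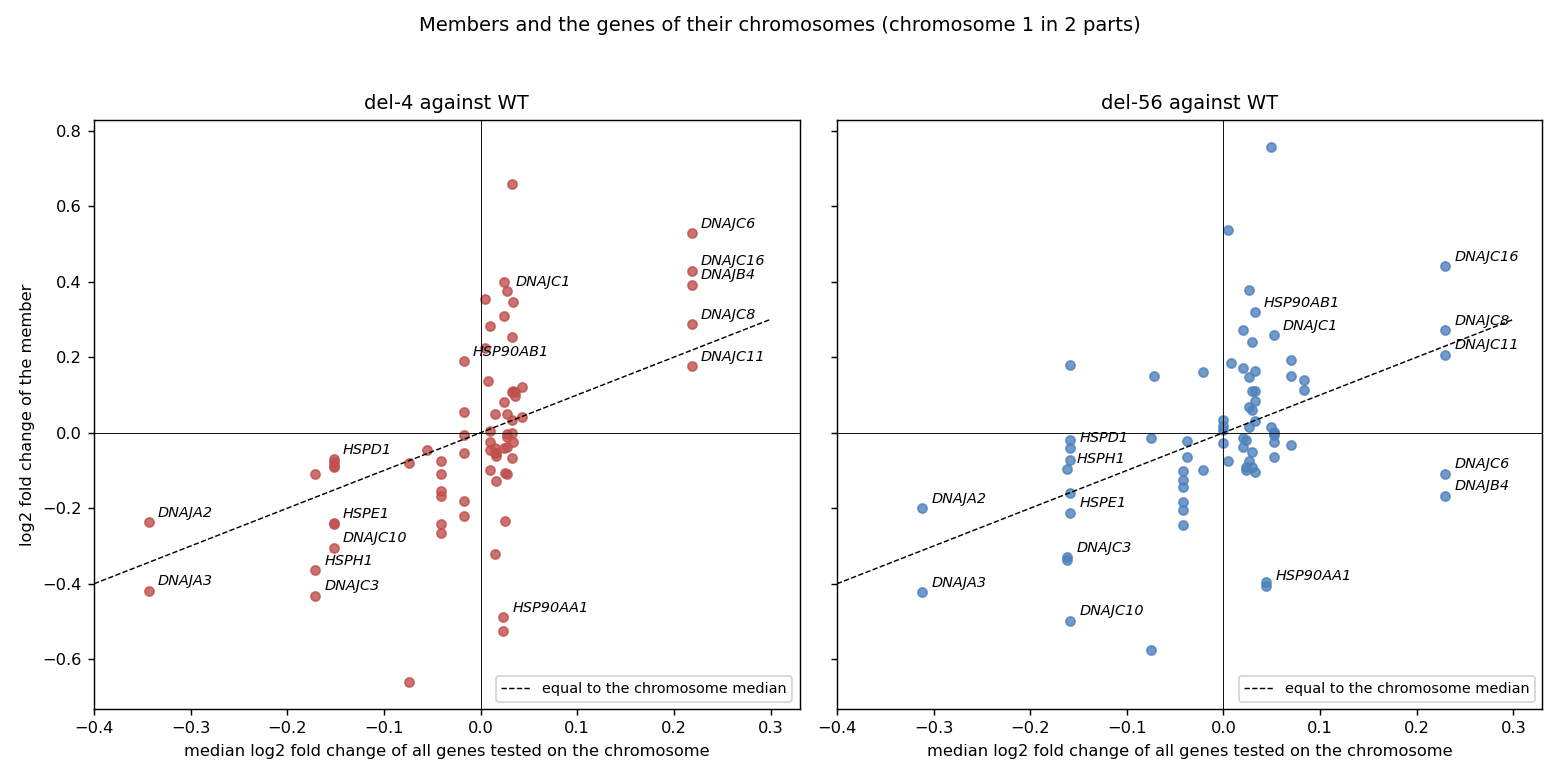
Log2 fold change of each member against the median log2 fold change of all genes tested on its chromosome, with chromosome 1 split at position 120000000, in del-4 and del-56, and with *HSPB8* and *HSPB2* left out where beyond 1. *DNAJA2* and *DNAJA3* lie at the far left on either side of the line of equality, *DNAJC8* and *DNAJC11* at the right near it, and *HSP90AA1* far below it.

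The *EPCART*-del clones were then compared with each other, to see where they differed. Of 76 members, 8 were higher in del-4 than in del-56 and 4 lower, beside 10.9% and 9.0% of all genes. With each library rescaled to the same total the split was 7 and 19, and with quantile normalization it was 8 and 13. By the study's rule on fold size no member was called, where 4.28% of all genes were. Higher in del-4 were *HSPB8* (log2FC 0.93, adjusted p = 0.0013), *DNAJC6* (log2FC 0.64, adjusted p = 0.00026), *DNAJB4* (log2FC 0.56, adjusted p = 4.3e-07), *DNAJB14* (log2FC 0.32, adjusted p = 0.00017) and *DNAJC4* (log2FC 0.27, adjusted p = 0.0020), and by less than these *DNAJC10*, *HSPA4L* and *DNAJC17*. Lower were *DNAJC22* (log2FC -0.39, adjusted p = 3.1e-05), *TCP1* (log2FC -0.29, adjusted p = 4.7e-05), *HSPH1* (log2FC -0.27, adjusted p = 0.00022) and *HSPA1B* (log2FC -0.14, adjusted p = 0.029). *DNAJC22* had 2809, 2624 and 2649 in WT, 2824, 2809 and 2834 in del-56 and 2229, 2152 and 2081 in del-4. *DNAJC4* had 3056, 3291 and 3003 in WT, 3364, 3043 and 3165 in del-56 and 4031, 3554 and 4005 in del-4. For both genes, del-4 stood apart from the other clones, and *DNAJC4* shares exonic bases with *NUDT22* on the same strand. Among mitochondrial members limma called 0, with 1 higher in del-4 at an unadjusted p under 0.05, which edgeR and DESeq2 each called. Neither HSP90 gene of the cytosol was called in this comparison (log2FC -0.084, adjusted p = 0.21 for *HSP90AA1* and log2FC -0.13, adjusted p = 0.071 for *HSP90AB1*), but edgeR and DESeq2 each called 1 of the 3 HSP90 genes lower in del-4.

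Genes that work beside the members were taken from 4 lists, whose calls stand beside 20.5% of all genes higher in del-4 and 20.2% lower, while del-56 had 19.2% higher and 20.5% lower. Whether any list departed from these shares was not tested. Of 22 cytosolic co-chaperones and targets of HSF1, 7 were higher and 7 lower in del-4, while del-56 had 8 and 7. *BAG2*, an inhibitor of the ubiquitin ligase CHIP, was higher (log2FC 0.99, adjusted p = 2.1e-11 in del-4 and log2FC 0.89, adjusted p = 1.1e-08 in del-56), and *STUB1*, which encodes CHIP and lies on chromosome 16, was lower (log2FC -0.51, adjusted p = 7.1e-09 in del-4 and log2FC -0.67, adjusted p = 1.6e-09 in del-56). *SERPINH1*, the collagen chaperone HSP47, was low in every library, at normalized counts of 15.3 to 119.8, and lower in both clones (log2FC -0.88, adjusted p = 0.026 in del-4 and log2FC -2.27, adjusted p = 5.0e-05 in del-56), and *BAG3*, the partner of HSPB8, was not called (log2FC 0.017, adjusted p = 0.78 in del-4 and log2FC -0.037, adjusted p = 0.55 in del-56). Of 30 genes of the unfolded protein response and ER folding, 6 were higher and 13 lower in del-4, while del-56 had 6 and 15. Among the latter were *SDF2L1* (log2FC -0.59, adjusted p = 2.7e-07 in del-4 and log2FC -0.52, adjusted p = 2.3e-06 in del-56) and *CRELD2* (log2FC -0.44, adjusted p = 3.3e-07 in del-4 and log2FC -0.58, adjusted p = 4.8e-08 in del-56), both known targets of that response, and *DERL3* (log2FC -0.37, adjusted p = 0.042 in del-4 and log2FC -0.75, adjusted p = 0.0022 in del-56), of ER-associated degradation. *HYOU1*, the exchange factor of BiP, was lower by less (log2FC -0.11, adjusted p = 0.020 in del-4 and log2FC -0.13, adjusted p = 0.012 in del-56). Of 20 genes of mitochondrial import and quality control, 2 were higher and 5 lower in del-4, and 9 were lower in del-56. *TRAP1*, the mitochondrial HSP90 (log2FC -0.46, adjusted p = 4.6e-08 in del-4 and log2FC -0.54, adjusted p = 5.8e-08 in del-56), and the protease gene *SPG7* (log2FC -0.64, adjusted p = 5.1e-09 in del-4 and log2FC -0.43, adjusted p = 3.0e-06 in del-56) were lower in both, and both lie on chromosome 16. Of the 6 subunits of prefoldin, which hands actin and tubulin to TRiC, 3 were higher and 1 lower in del-4, while del-56 had 1 and 1. *PFDN1* was not called (log2FC -0.036, adjusted p = 0.51 in del-4 and log2FC 0.013, adjusted p = 0.83 in del-56).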

How the data were processed

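Poly(A) RNA of the 9 libraries was sequenced strand-specifically in paired 150-base reads. Per the study's methods and the submitters' processing notes (Trim Galore 0.6.5, FastQC 0.11.8), the authors aligned reads to GRCh38 with STAR 2.71a, indexed them with SAMtools 1.8 and counted protein-coding genes of GENCODE 38 with bedtools 2.27.1 multicov. How multi-mapping reads and strand were handled in counting is not given in the sources used here. The deposited values, treated as a signal, are read counts divided by 1 DESeq2 size factor per library. Dividing by the step between low values gave whole reads for 100.0% of values (tolerance 1e-04 reads), or 91074556 to 118877134 per library. Of values of 1 to 20 reads, 83.8% were even, which both mates of a pair being counted would give. Intervals from reads would then be too narrow, and none are given except for a count of 0. Such a count allows up to 3 reads if reads are independent, a bound that would be too narrow in the same way.

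The members and lists were chosen with earlier results of these data known. The test was limma-trend (limma 3.58.1, R 4.3.3) on log2(normalized count + 1), between 2 clones of 3 libraries each, over genes with a mean of at least 1, with Benjamini-Hochberg adjustment over all genes tested. Count tests on the recovered reads, edgeR 4.0.16 (quasi-likelihood) and DESeq2 1.42.0, were alternatives: edgeR called 3529 genes higher and 3520 lower in del-4, 3418 and 3525 in del-56, and 1887 and 1605 between the *EPCART*-del clones. Other alternatives were pseudocounts of 0.5 and 5, no filter or a mean of at least 10, quantile normalization, the same total for every library, all 9 libraries in 1 fit, the replicate number as a block, leaving out each library, the study's fold rule and, added after seeing the data, centring by chromosome. Scripts were tested on simulated data. Symbols came from GENCODE 44 for 19905 of 19984 identifiers. Tables were made with Python 3.11.15, pandas 2.3.3 and numpy 2.4.6, and coding sequences were aligned with Biopython 1.88.

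Named genes were 21 members chosen for their roles, the 8 largest rises and falls called in both clones with a mean of at least 10, the 5 largest called differences in each direction between the *EPCART*-del clones, the 5 highest levels per kilobase in each compartment, and genes of the lists called in both clones in 1 direction with a mean log2 fold change above 0.5 in size, besides *HYOU1*, *BAG3*, *TRAP1* and *PFDN1*. Other members are named where a count of calls needed them. Protein sequences were not analysed here. 1 luminal marker checked is not reported here.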

Additional observations from a re-analysis of the deposited data

Results flagged for a closer look

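The *EPCART*-del clones differed from each other in 12 members by limma's direct test with Benjamini-Hochberg adjustment over all genes. *HSPB8* was higher in del-4 by 0.93 on the log2 scale (adjusted p = 0.0013), above del-56 in 3 of 3 libraries, and its call was lost with no filter on low values. *DNAJC6* was higher by 0.64, *DNAJB4* by 0.56, *DNAJB14* by 0.32, *DNAJC4* by 0.27, *DNAJC10* by 0.19, *HSPA4L* by 0.19 and *DNAJC17* by 0.18. *DNAJC22* had a difference of -0.39, *TCP1* of -0.29, *HSPH1* of -0.27 and *HSPA1B* of -0.14. The calls of *HSPH1*, *DNAJC4*, *DNAJC17* and *HSPA1B* were also lost with no filter. That of *DNAJC17* was lost with the same total for each library and without del-4 replicate 1 or 3 or del-56 replicate 2 or 3 (0.14 to 0.23 over all fits that leave out 1 library). That of *HSPA1B* was lost in 1 fit of all 9 libraries, with centring by chromosome and without replicate 1 or 3 of either clone (-0.18 to -0.11). The reads of *HSPA1B* cannot be told from those of *HSPA1A* with certainty. *DNAJC6* and *DNAJB4* lie on chromosome 1, where the median of all genes up to position 120000000 was -0.012 in this comparison. What set the clones apart was not tested.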

How the results depend on the processing

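Among the values of named members under each alternative, 1371 kept their direction and side of the threshold, 100 lost the call, 39 gained it and 20 turned. Under the study's fold rule, the members higher and lower were 1 and 0 in del-4, 0 and 0 in del-56, and 0 and 0 between the *EPCART*-del clones. With the same total for each library, 11 were higher and 34 lower in del-4, and between the *EPCART*-del clones 19 were lower in del-4. Without a filter, 9 were lower in del-56, and 5 and 2 were higher and lower between the *EPCART*-del clones. For the latter, 13 were lower with quantile normalization, 8 by edgeR and 9 by DESeq2. Centring by chromosome left 11 higher in del-4 and 8 in del-56. Leaving out 1 library gave 8 to 15 higher in del-56 (9 without WT replicate 2 or 3 and 8 without del-56 replicate 3) and 3 to 10 lower in del-4 against del-56 (7 without del-4 replicate 2 and 10 without del-56 replicate 1).

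The numbers of the replicates are not said to pair them, and same-numbered libraries deviated from their clones' means with correlations of -0.053 to 0.063. With the replicate number as a block, 17 members were higher and 19 lower in del-4, 8 and 12 in del-56, and 8 and 4 between the *EPCART*-del clones.

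With the same total, the median log2 fold changes in del-4 were -0.10 for cytosolic or nuclear, -0.11 for ER and -0.17 for mitochondrial members. In del-56 the cytosolic or nuclear median was -0.031, and between the *EPCART*-del clones the medians were -0.098, -0.020 and -0.042. The median of all genes moved to -0.072, -0.029 and -0.043 in these comparisons. With quantile normalization the mitochondrial median in del-4 was -0.14, and the cytosolic or nuclear and ER medians in del-56 were 0.012 and -0.075. With centring, the cytosolic or nuclear and mitochondrial medians in del-4 were -0.00017 and -0.072, and the cytosolic or nuclear and ER medians in del-56 were 0.036 and -0.082. Leaving out 1 library gave -0.037 to -0.012, -0.050 to -0.014 and -0.118 to -0.086 for the cytosolic or nuclear, ER and mitochondrial medians in del-4. For the cytosolic or nuclear median it gave -0.013 to 0.018 in del-56 and -0.070 to -0.043 between the *EPCART*-del clones.

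The values that turned were small after the turn. Before centring, *DNAJA2* (-0.24 in del-4 and -0.20 in del-56) and *DNAJC11* (0.18 and 0.21) had been called in both clones. With centring, *DNAJA2*, *DNAJC11* and *HSPD1* came to 0.10, -0.046 and 0.077 in del-4, and *CCT3*, *DNAJA2*, *DNAJB1*, *DNAJC11*, *DNAJC14*, *HSPD1* and *HSPH1* to 0.056, 0.11, 0.013, -0.020, -0.013, 0.12 and 0.056 in del-56. With the same total, *DNAJC14* came to -0.013 in del-56, and with quantile normalization *HSF2* to 6.8e-05 in del-4. Without 1 library, *DNAJB9* ranged from -0.15 to 0.014 and *HSF2* from -0.044 to 0.026 in del-4. In del-56, *CCT3* ranged from -0.036 to 0.014, *DNAJC4* from -0.0050 to 0.074, *HSPA1A* from -0.11 to 0.14 and *HSPD1* from -0.066 to 0.0066, the end of the turned sign being that without del-56 replicate 1 or, for *HSPA1A*, WT replicate 1. Apart from the changes that follow from the settings' construction, the cause was not tested. Depth limits only the members of few reads, *HSPB2* above all.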
